A study of Mus musculus with 60 samples.

Results

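Cytosolic ribosomal protein genes were examined in spleen leukocytes of young mice of 3 strains. The genes were those with a single symbol in the array annotation that is Rpl or Rps followed by a number and at most 1 of the letters a, l, x or y with an optional digit, or that is Rplp0, Rplp1, Rplp2 or Rpsa. Pseudogenes and the Rps6ka kinases were left out. The rule found 105 probe sets of 49 genes, 26 of the large and 23 of the small subunit, among 18193 genes with a single symbol and 45037 probe sets in all. Probe sets reaching a signal of 50 in 5 or more of the 30 mice were analysed, 38293 in all, and are called kept. Of the ribosomal protein probe sets 96 were kept, representing 47 genes, and 9 were too dim. Rpl3l and Rps16 had no kept probe set. A further 110 probe sets list a ribosomal protein gene beside other genes and are not named here.

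The mice were females of the NOD strain, which develops autoimmune diabetes spontaneously, and of the control strains NON and C57BL/6 (C57), with no transgene or treatment in any group. Each strain was sampled at 2 and at 4 weeks of age with 5 samples per group. Unfractionated spleen leukocytes were used ex vivo without culture, and RNA of each sample was hybridized to a 430A and a 430B array. The sources do not say that each sample is 1 animal, so p-values measure the spread between these samples. A sample is called a mouse throughout for short.

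Each ribosome is built from a large and a small subunit, in which many proteins are assembled on ribosomal RNA in the nucleolus before export to the cytosol. The proteins are made in matched amounts, and their mRNAs are among the most abundant of lymphocytes and other blood cells. Most of these mRNAs begin with a C followed by a run of pyrimidines, the 5' terminal oligopyrimidine (TOP) tract, through which mTOR signaling and the protein LARP1 control their translation. Several ribosomal proteins have a paralog with restricted expression, such as Rpl39l in testis.

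The transcript starts of 6 genes named in the results are shown as given in the RefSeq promoter table (build GRCm38.p6). They let a reader see the tract, or its absence, at the annotated start. Each line holds 10 bases before and 20 bases from the annotated start, 5' to 3' on the gene's strand, and the capitals mark the first 5 bases from that start.
Rps6: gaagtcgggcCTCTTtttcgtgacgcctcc
Rpl14: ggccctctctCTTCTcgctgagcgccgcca
Rplp2: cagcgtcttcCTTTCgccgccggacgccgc
Rps9: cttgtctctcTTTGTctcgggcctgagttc
Rps3: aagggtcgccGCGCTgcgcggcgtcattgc
Rpl7l1: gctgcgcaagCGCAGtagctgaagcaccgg
The windows lie at chr4:86857348-86857377 (minus strand) for Rps6, chr9:120571507-120571536 (plus) for Rpl14, chr7:141447641-141447670 (plus) for Rplp2, chr7:3704031-3704060 (plus) for Rps9, chr7:99483690-99483719 (minus) for Rps3 and chr17:46782637-46782666 (minus) for Rpl7l1. A C at the annotated start followed by 4 bases that are each C or T, on the gene's strand, was found in 8 of the 43 ribosomal protein genes that the table holds (18.6%), among them Rps6, Rpl14 and Rplp2. The share was 2.49% over the 27025 genes of the table, and none of the 69 genes of mitochondrial ribosomal proteins matched. Within 5 bases of the annotated start the shares were 46.5% and 18.5%, and that of the mitochondrial ribosomal proteins was 21.7%. Rps9 matched within 5 bases, though not at the annotated start. A match describes letters at an annotated position only.

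Values are MAS 5.0 signals, linear intensities that were scaled for each array. Over the 96 probe sets the mean signal ran from 35.8 to 41500 with a median of 8050. Array medians were 84.8 to 126 on 430A and 126 to 169 on 430B. Among the markers checked, 7 of 8 B cell genes and 7 of 8 T cell genes were kept, as were 6 of 10 erythroid, 8 of 8 macrophage and 4 of 7 pancreatic acinar genes. For Gapdh, the ratio of 3' to 5' signal, a measure of RNA degradation, was 4 in NON 2 week replicate 2 and 3.15 in NON 4 week replicate 1, and at most 2.4 in the other mice. NOD 4 week replicate 3 had a median correlation of 0.739 with the other mice of its group, against 0.847 to 0.859 for those mice. Because the cells were not fractionated, fewer cells of a type and less RNA per cell cannot be told apart.

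Most ribosomal protein mRNAs did not pass the test for a strain difference. At 2 weeks 6 of 96 probe sets differed between the 3 strains, and at 4 weeks 4 of 96 did (limma moderated F-test, adjusted p under 0.05), where 1.66% and 1.51% of all kept probe sets were called. The 6 were Rpl8, Rpl7l1, Rpl14, Rps6, Rps9 and Rps4l, and Rpl8, Rpl7l1, Rps6 and Rps9 differed at both ages. Rps4l was kept only through 2 week NOD and C57 mice, the groups where it is high. The count of 6 includes it, and its call carries no weight in the comparison with all kept probe sets. At an unadjusted p under 0.05 the ribosomal protein probe sets numbered 12 and 16 (12.5% and 16.7%), against 14.1% and 13.4% of all kept probe sets. Each of the 3 strains was the one that stood apart for at least 1 of the genes. The plot of the 7 probe sets by mouse shows these 6 and Rps3.

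**Figure D1:**
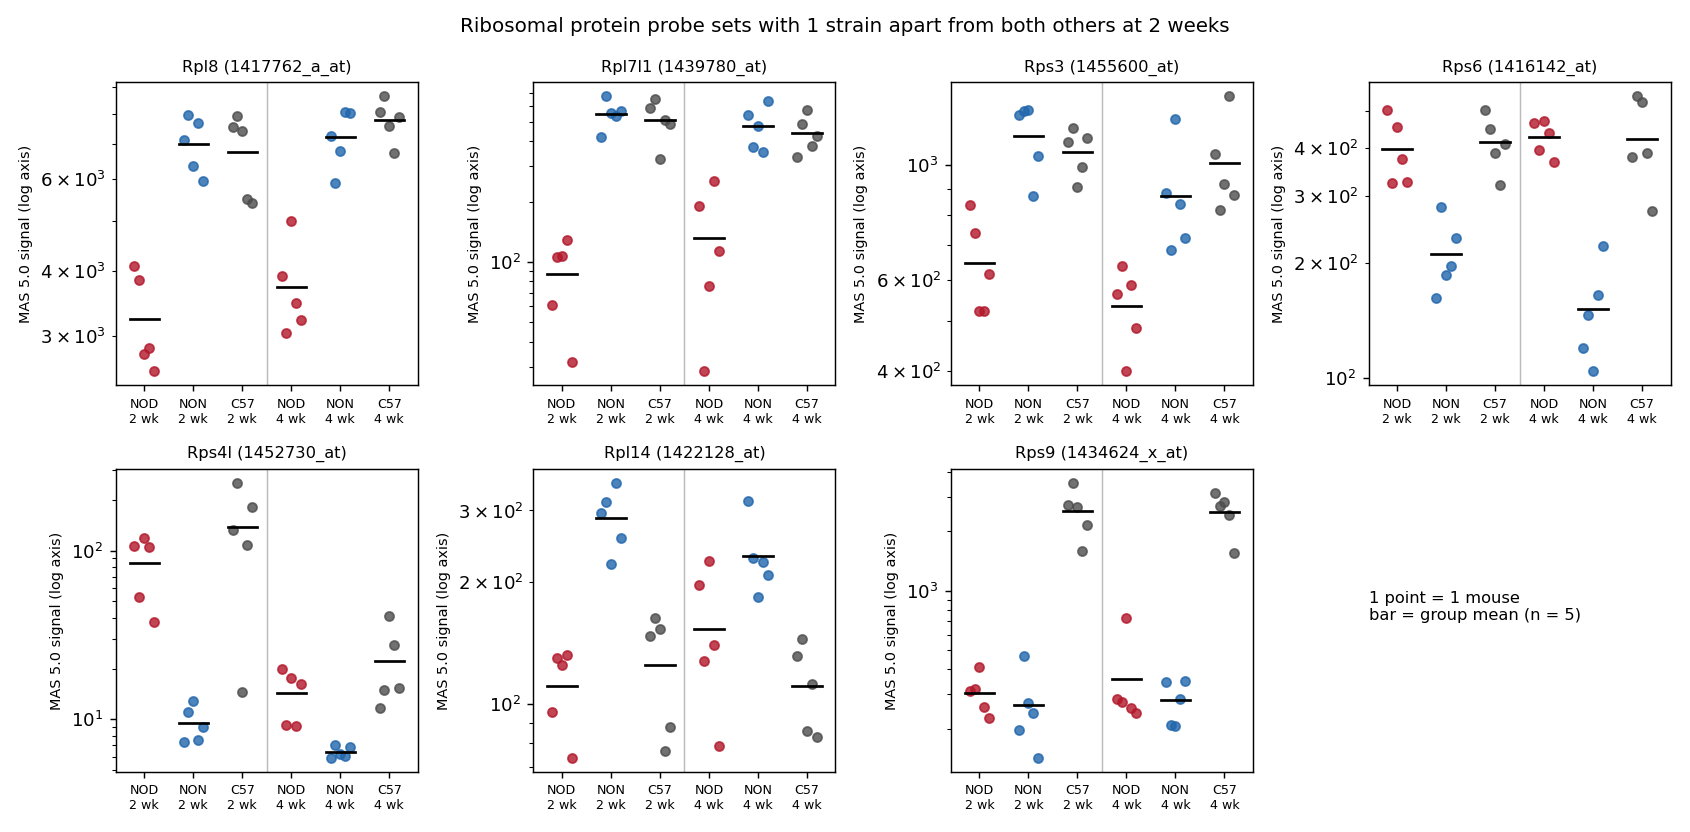
MAS 5.0 signal (log axis) of 7 ribosomal protein probe sets in each of the 30 mice by strain and age, with bars at the group means (n = 5). All 5 NOD mice lay below the 10 control mice at both ages for Rpl8, Rpl7l1 and Rps3, all 5 NON mice lay lowest for Rps6 and Rps4l, and all 5 C57 mice lay highest for Rps9.

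Among genes of the large subunit, Rpl8 was low in NOD mice. Rpl8 encodes a protein close to the peptidyl transferase center. At 2 weeks its signals in NOD were 4090, 3850, 2770, 2850 and 2570, against 7120, 7960, 6360, 7690 and 5950 in NON and 7570, 7920, 7420, 5490 and 5410 in C57. At 4 weeks they were 3920, 3040, 5000, 3470 and 3220 in NOD, 7260, 5900, 6810, 8070 and 8050 in NON, and 8090, 8660, 7580, 6740 and 7880 in C57. The highest NOD mouse lay below the lowest control mouse at each age. The mean of controls was 2.13-fold that of NOD at 2 weeks (log2 difference -1.10, SE 0.17, limma adjusted p = 0.004) and 2.01-fold at 4 weeks (-1.02, SE 0.15, adjusted p = 0.0036). NON and C57 overlapped with each other. Rpl8 is measured by the single probe set 1417762_a_at, so no second probe set could be compared with it.

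Rpl14, a large subunit protein measured by the single probe set 1422128_at, was high in NON mice at 2 weeks. The mean signal of this probe set was only 170, against a median of 8050 over the 96 probe sets. At 2 weeks its signals were 296, 314, 222, 351 and 256 in NON, 95.6, 130, 125, 132 and 73.6 in NOD, and 147, 163, 153, 76.8 and 87.6 in C57. All 5 NON mice were above the other 10 (1 of 96 probe sets, and 0.308% of all kept), and the NON mean was 2.43-fold the mean of the others (NOD minus NON on the log2 scale -1.31, SE 0.24, limma adjusted p of the F-test = 0.013). At 4 weeks the means were 232 ± 50.8 (SD, n = 5), 153 ± 57.8 and 111 ± 27.2 for NON, NOD and C57, with overlap between NON and NOD, and the test was not passed (adjusted p = 0.16). Whether the strain difference itself changed with age did not pass either (interaction p = 0.15, limma adjusted p = 0.79).

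Of the small subunit genes, Rps6 was low in NON mice on 1 of its 2 kept probe sets, 1416142_at. The mean signal of this probe set was 337, against a median of 8050 over the 96 probe sets. Rps6 encodes the protein phosphorylated by the S6 kinases downstream of mTOR, and its start in the sequences above carries the tract. At 2 weeks the signals on 1416142_at were 162, 280, 186, 196 and 232 in NON, 503, 324, 455, 375 and 326 in NOD, and 504, 448, 388, 320 and 410 in C57. At 4 weeks they were 120, 146, 104, 165 and 222 in NON, 466, 394, 471, 439 and 368 in NOD, and 378, 547, 527, 389 and 274 in C57. All NON mice were below all other mice at each age, as held for 2 ribosomal protein probe sets at each age and for 0.491% and 0.316% of all kept probe sets. The second of the 2 was that of Rps4l, which was kept only through groups where it is high. The mean of the other strains was 1.92-fold that of NON at 2 weeks (NOD minus NON 0.88 on the log2 scale, SE 0.20, limma adjusted p of the F-test = 0.029) and 2.81-fold at 4 weeks (1.48, SE 0.23, adjusted p = 0.0032). NOD minus C57 was -0.07 and 0.05 on the log2 scale. The 2 week call was lost without each of 9 of the 15 mice in turn (adjusted p up to 0.088), and the 4 week call was kept without any 1 mouse. The dim second probe set of Rps6, 1453466_at, had means of 57.5, 48.2 and 57.5 in NOD, NON and C57 at 2 weeks and did not pass (adjusted p = 0.86).

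Rps9 had the lowest p of the 96 probe sets at both ages, on 1 of its 3 probe sets. Rps9 encodes a small subunit protein that binds early in subunit assembly. On 1434624_x_at the C57 mice gave 2710, 3530, 2660, 1600 and 2170 at 2 weeks, against 310, 318, 409, 258 and 226 in NOD and 198, 468, 270, 239 and 142 in NON. At 4 weeks C57 gave 3120, 2690, 2810, 2420 and 1560, against 284, 272, 732, 254 and 241 in NOD and 346, 210, 207, 284 and 349 in NON. C57 was 8.94-fold the mean of the others at 2 weeks (NOD minus C57 -3.00 on the log2 scale, SE 0.29, limma adjusted p of the F-test = 1.2e-05) and 7.94-fold at 4 weeks (-2.89, SE 0.30, adjusted p = 3.3e-05). All C57 mice were above all others (1 of 96 probe sets at each age, and 0.752% and 0.556% of all kept), and NOD and NON overlapped. The bright probe set 1433689_s_at had means of 10700, 9120 and 9170 in NOD, NON and C57 at 2 weeks and 12500, 10400 and 9880 at 4 weeks (adjusted p = 0.77 and 0.85). The third, 1426958_at, averaged 85.5, 61.6 and 124 at 2 weeks and 58.3, 49.8 and 131 at 4 weeks (adjusted p = 0.24 and 0.35). A name ending in _x_at marks a probe set with probes that can match other sequences. No probe sequences were available, so it was not checked which transcripts the probe sets of Rps9, Rps6, Rpl7l1 and Rps3 match.

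Rps3 showed a similar split between probe sets. Its product lies at the mRNA entry channel of the small subunit. On 1455600_at the NOD mice gave 837, 740, 524, 524 and 617 at 2 weeks, below all of the NON mice (1250, 1270, 1280, 873 and 1040) and C57 mice (1110, 1180, 906, 994 and 1130). At 4 weeks NOD gave 564, 640, 400, 588 and 484, again below all of NON (885, 686, 1230, 840 and 724) and C57 (1050, 821, 921, 1360 and 876). The log2 difference of NOD from the mean of controls was -0.77 at 2 weeks (SE 0.16, limma adjusted p = 0.049) and -0.79 at 4 weeks (SE 0.18, adjusted p = 0.062), so that only the 2 week value passed. It lost its call without each of 13 of the 15 mice in turn, with an adjusted p up to 0.16. The bright probe set 1435151_a_at did not follow (13600, 13400 and 13300 in NOD, NON and C57 at 2 weeks, log2 difference 0.05, adjusted p = 0.97), and 1447563_at lay on the other side (log2 difference 0.66 at 2 weeks and 1.5 at 4 weeks, adjusted p = 0.69 and 0.16).

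**Figure D2:**
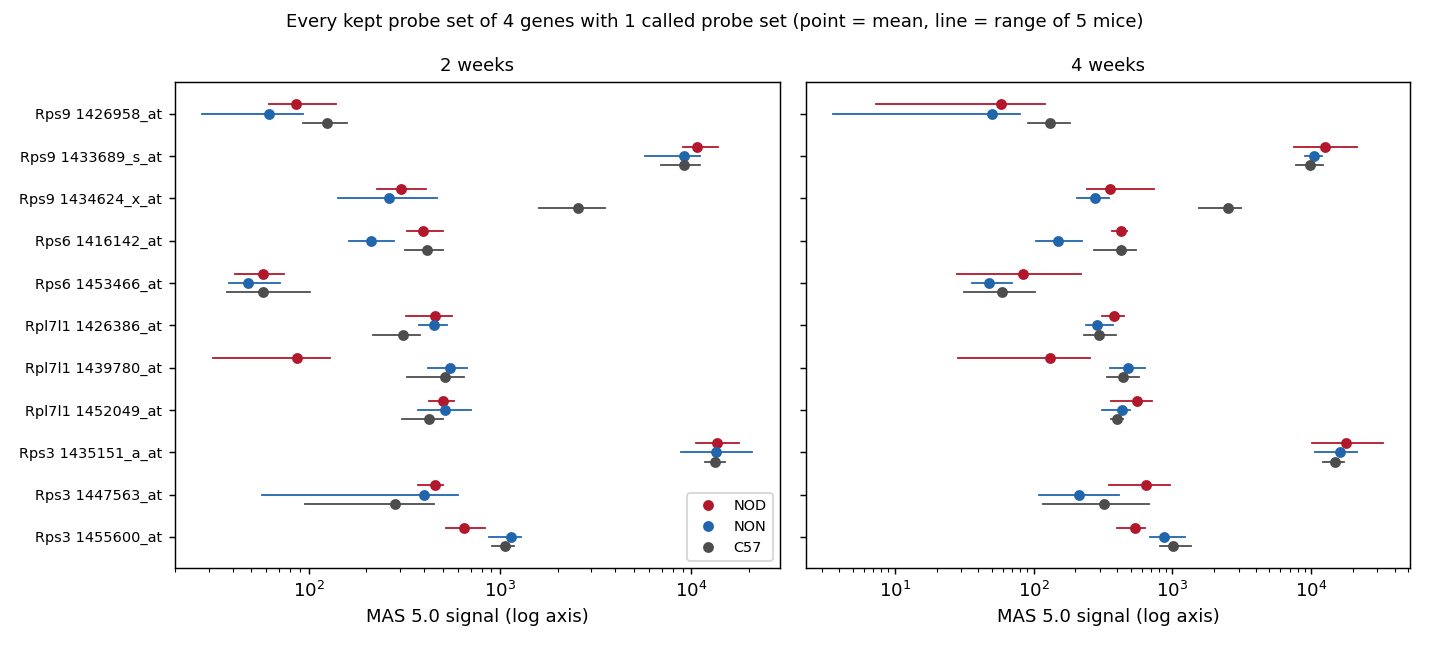
Mean MAS 5.0 signal (point, log axis) and range over 5 mice (line) in each strain for all kept probe sets of Rps9, Rps6, Rpl7l1 and Rps3, at 2 weeks (left) and 4 weeks (right). In each gene 1 probe set separated a strain from both others at both ages, which for Rps3 passed only in NOD against the controls at 2 weeks (adjusted p = 0.049), and the remaining 1 or 2 did not pass the test.

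The stalk proteins Rplp0 and Rplp2, which recruit the elongation factors, and Rpsa, a small subunit protein also known as the laminin receptor precursor, did not pass the test at either age. The mean signal of Rplp0 at 2 weeks was 11500 ± 1560 in NOD (SD, n = 5), 11300 ± 2000 in NON and 9850 ± 865 in C57. Rplp2 was at 8410 ± 1720, 8770 ± 2730 and 9380 ± 971, and Rpsa at 11500 ± 2170, 12700 ± 3760 and 11900 ± 920. Their log2 differences of NOD from the mean of controls were 0.13, -0.11 and -0.09 at 2 weeks (SE 0.15, 0.19 and 0.18) and 0.15, -0.27 and 0.06 at 4 weeks (SE 0.24, 0.14 and 0.21), with limma adjusted p of at least 0.46. All of these groups overlapped.

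Of the paralogs, Rpl7l1 was low in NOD on 1 probe set. Rpl7l1 encodes an Rpl7-like protein found in precursors of the large subunit. On 1439780_at the NOD mice gave 60.8, 106, 107, 129 and 31.5 at 2 weeks, against 422, 674, 553, 536 and 566 in NON and 588, 650, 327, 513 and 487 in C57. At 4 weeks they gave 191, 28.4, 75.5, 253 and 114, against 543, 374, 479, 353 and 638 and 336, 488, 577, 381 and 426. All 5 NOD mice lay below all 10 control mice at each age, as held for 0.274% and 0.436% of all kept probe sets. NON and C57 overlapped with each other, and the NOD mice themselves spread widely at 4 weeks. The mean of controls was 6.12-fold that of NOD at 2 weeks (log2 difference -2.58, SE 0.26, limma adjusted p = 8.7e-05) and 3.47-fold at 4 weeks (-1.98, SE 0.35, adjusted p = 0.014). The other probe sets, 1426386_at and 1452049_at, were on the opposite side without passing (0.26 and 0.12 at 2 weeks, 0.38 and 0.38 at 4 weeks, adjusted p of at least 0.36). The 4 week F-test lost its call without NOD replicate 3 (adjusted p = 0.059) and without NOD replicate 5 (0.057). The partner Rpl7, of which 3 probe sets were kept, did not pass, with log2 differences of 0.05 to 0.25 at 2 weeks.

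Rps4l, the paralog of the X-linked gene Rps4x, was measured by a single dim probe set. It reached the limit of 50 in 4 NOD and 4 C57 mice at 2 weeks and in no other mouse, so it was kept only through the groups where it is high. Its signals were 106, 53, 119, 105 and 37.7 in NOD, 132, 252, 14.6, 108 and 182 in C57, and 7.3, 11.1, 12.9, 7.5 and 9 in NON. All NON mice were below all others, although C57 replicate 3 came close at 14.6. The F-test was passed (limma adjusted p = 0.021, and 0.024 with no filter), but no fold is given because the NON signals are far below 50, and the log2 difference of NON from the others ran from -1.31 to -3.1 with the pseudocount. The call was lost without NON replicate 1, 4 or 5 (adjusted p = 0.057, 0.058 and 0.057). At 4 weeks the means were 14.4, 6.42 and 22.1 in NOD, NON and C57 (adjusted p = 0.16). Rps4x itself was at 12800 ± 2700, 11700 ± 3860 and 11900 ± 1920 (SD, n = 5) in NOD, NON and C57 at 2 weeks and did not pass (adjusted p = 0.92).

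The remaining paralogs did not pass in any comparison. Rpl22l1 averaged 3710, 3190 and 3470 in NOD, NON and C57 at 2 weeks, and its partner Rpl22, on its brightest probe set, 40200, 41100 and 40500. Rps27l, a p53-responsive paralog of Rps27, averaged 1670, 1960 and 1500 on 1423254_x_at at 2 weeks. Rpl39l was dim, at 64, 22.6 and 40.2, and its log2 difference of NOD from controls was 0.86 at 2 weeks and 1.00 at 4 weeks (limma adjusted p = 0.5 and 0.32) with overlapping groups. The partners Rpl39 and Rps27 had log2 differences of -0.13 and -0.05 at 2 weeks and 0.04 and -0.2 at 4 weeks (adjusted p of at least 0.68). Rpl3l, known from muscle, was not kept, with signals of 4.9 to 90.8 over the 30 mice. Rps24, a small subunit gene with 5 kept probe sets, did not pass either, and its 1453362_x_at had log2 differences of -0.45 and -0.65 at 2 and 4 weeks (limma adjusted p = 0.61 and 0.12). Rpl41 gave 1 further complete separation, since the NON mice lay above the others at 4 weeks on 1454639_x_at (1 of 96 probe sets, and 0.206% of all kept), but the test was not passed (adjusted p = 0.057). It was passed with a pseudocount of 50 (0.036), quantile normalization (0.022), median centering (0.028) and the beta-actin ratio as a covariate (0.044).

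In NOD against the mean of both controls, 4 probe sets were called at 2 weeks and 3 at 4 weeks, all lower in NOD (limma, adjusted p under 0.05). Over all kept probe sets 0.499% were called at 2 weeks and 0.804% at 4 weeks, and 0.287% and 0.52% were called lower. At both ages the list was Rpl8, Rpl7l1 and Rps9, with Rps3 added at 2 weeks, and no ribosomal protein was called higher. For Rps9 the difference (-1.36 and -1.33 on the log2 scale, adjusted p = 0.022 and 0.028) stood beside a NOD minus NON difference of 0.28 and 0.24, so that it lay against C57 and not NON. It lost its call without NOD replicate 1, 2, 4 or 5 at 2 weeks (adjusted p of 0.055 to 0.082) and without each of 7 mice at 4 weeks (NOD replicates 1, 2, 4 and 5, NON replicate 5, C57 replicates 2 and 3, adjusted p of 0.051 to 0.093). All 5 NOD mice lay below all 10 control mice for 3 ribosomal protein probe sets at each age (0.274% and 0.436% of all kept probe sets), and above them for 0 (0.253% and 0.308%).

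As a group the ribosomal protein mRNAs were close to level between NOD and the controls. The median log2 difference of the 96 probe sets was 0.11 at 2 weeks and 0.04 at 4 weeks, where all kept probe sets had medians of 0.06 and 0.05. At 2 weeks 68 of the 96 lay above 0, as did 57.7% of all kept probe sets. At 4 weeks 59 did, beside 55.1%, and with the arrays centered on their medians the 4 week median was -0.04 with 39 of 96 above 0, beside -0.03 and 46.6% for all kept. At 2 weeks the median was 0.03 under both quantile normalization and centering, with 57 and 55 of 96 above 0 (51% and 45.6% of all kept). Both subunits gave similar values, with medians of 0.08 (large) and 0.13 (small) at 2 weeks and 0.05 and 0.02 at 4 weeks. The middle of the distribution was narrow, with quartiles of -0.02 and 0.17 at 2 weeks.

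**Figure D3:**
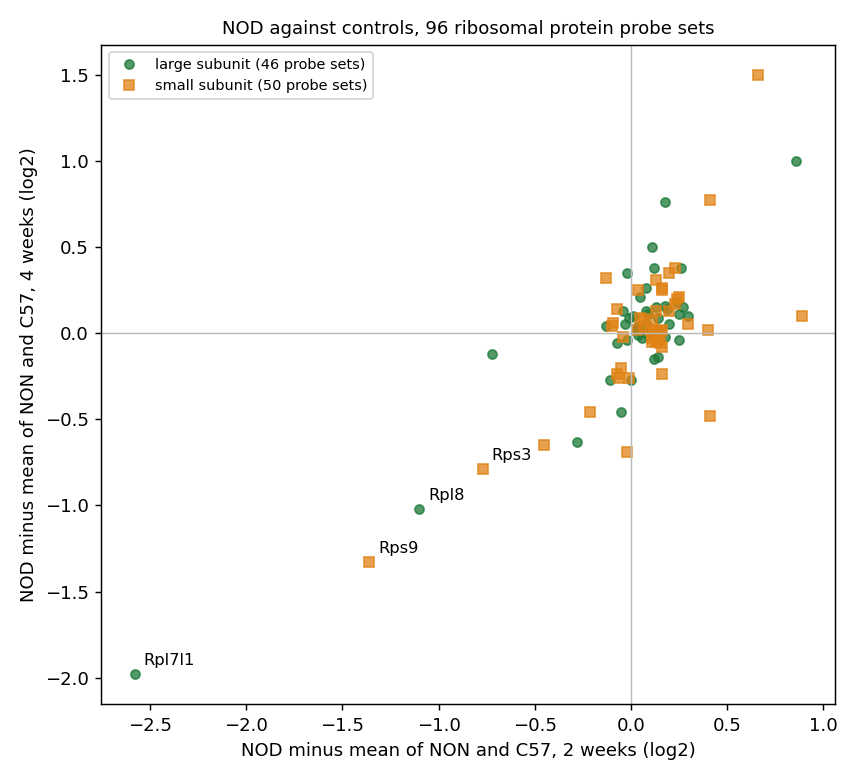
Log2 difference of NOD from the mean of NON and C57 at 2 weeks (horizontal) and 4 weeks (vertical) for 96 ribosomal protein probe sets, by subunit, with the 4 genes called at either age named. Most probe sets sit near 0 (medians 0.11 and 0.04), and Rpl7l1, Rps9, Rpl8 and Rps3 lie apart at the lower left.

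The strain differences stood beside other differences between these samples. The T cell list (7 of 8 genes kept) had a mean log2 deviation of -1.68 to -0.84 in NON at 2 weeks, against -0.44 to 0.23 in NOD and -0.34 to 0.58 in C57. The Gapdh 3'/5' ratio differed between strains too. Its mean was lowest in NOD at both ages (0.85 and 0.98, against 1.48 and 1.74 in NON and 1.52 and 1.44 in C57), and the 2 highest ratios belonged to NON mice. With this ratio as a covariate Rps6, Rpl14 and Rps4l kept their 2 week calls (limma adjusted p = 0.037, 0.02 and 0.036), and Rps6 was at an adjusted p of 0.006 at 4 weeks. Rpl8 was kept at both ages (adjusted p = 0.023 and 0.019), while Rpl7l1 lost its 4 week call (adjusted p = 0.084). For NOD against the controls, the covariate ended the calls of Rps3 at 2 weeks (adjusted p = 0.18), Rps9 at both ages (0.11 and 0.13) and Rpl7l1 at 4 weeks (0.067), and kept Rpl8 at both ages and Rpl7l1 at 2 weeks. The beta-actin 3'/5' ratio as the covariate gave another picture. Under it Rps9 kept this call at both ages (limma adjusted p = 0.019 and 0.015). Rpl7l1 kept it at 4 weeks (0.018, and 0.031 in the F-test), and Rps3 lost it at 2 weeks. The part of the T cell list in these results was not tested.

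No ribosomal protein probe set passed the test for a change with age within a strain. It called 0 of 96 in NOD, NON and C57 (limma, adjusted p under 0.05), where 0.0157%, 0.0601% and 0.107% of all kept probe sets were called. At an unadjusted p under 0.05 there were 1, 3 and 4 ribosomal protein probe sets (7.49%, 11.1% and 8.22% of all kept), and an age change that differed between strains was called for 0 of 96 (0.00261% of all kept, and 3 of 96 at an unadjusted p under 0.05, beside 6.9% of all kept). The median change from 2 to 4 weeks was 0.12 in NOD, 0.22 in NON and 0.11 in C57 on the log2 scale, and 79, 76 and 73 of the 96 probe sets lay above 0. Over all kept probe sets the medians were 0, 0 and 0.03, and 49.8%, 50.2% and 53.3% lay above 0. The shift depended on the scaling. After quantile normalization of the arrays the medians of the ribosomal proteins were 0.01, 0.03 and 0.04, with 51, 51 and 59 of 96 above 0 (49.4%, 50.1% and 51.4% of all kept). With the arrays centered on their medians they were 0.11, 0.24 and 0.06, with 79, 76 and 66 of 96 above 0 (48.8%, 49% and 48.3% of all kept).

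**Figure D4:**
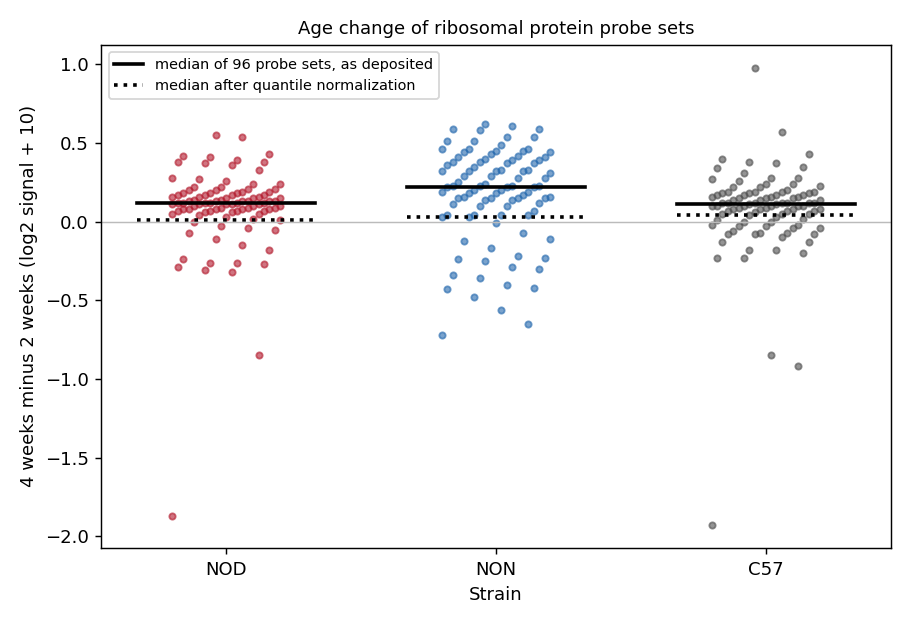
Change from 2 to 4 weeks of age (log2 of signal + 10) of the 96 ribosomal protein probe sets in NOD, NON and C57, with the median as deposited (solid) and after quantile normalization (dotted). The solid medians are 0.12, 0.22 and 0.11, the dotted ones 0.01, 0.03 and 0.04, and the lowest point in NOD and in C57 is Rps4l.

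Rps4l was the lowest point in NOD and C57, but all 4 week mice were below the limit of 50, and the probe set was kept only through 2 week mice of these strains. In NOD its signals of 37.7 to 119 at 2 weeks were followed by 19.9, 9.2, 17.7, 9.1 and 16.1 at 4 weeks, with no overlap, and the log2 change of -1.87 (SE 0.31) did not pass (p = 8.7e-05, limma adjusted p = 0.14). This size is not firm, since it ran from -2.4 to -1.01 with the pseudocount. In C57 the 4 week signals were 11.6, 15, 40.7, 27.7 and 15.3, overlapping the 2 week mice only through replicate 3 of that age (14.6), and the change of -1.93 (SE 0.56) did not pass (limma adjusted p = 0.34), but did without that mouse (-2.48, limma adjusted p = 0.022). With all 30 mice in 1 limma fit the change passed in both strains (adjusted p = 0.049 in NOD and 0.019 in C57). In NON, already near 10 at 2 weeks, the change was -0.24. The difference of the age change between strains had an interaction p of 0.0085 and a limma adjusted p of 0.64. Granulocyte precursor genes (8 of 8 kept) also differed between the ages, with a mean log2 deviation of -0.04 to 1.14 in NOD at 2 weeks and -2.02 to -0.2 at 4 weeks, 0.12 to 1.05 and -1.86 to -1.22 in C57, and 0.46 to 1.45 and -0.08 to 0.31 in NON. Their part in the Rps4l values was not tested.

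The level of the ribosomal proteins as a whole varied more between mice of a group than between groups. It was taken as the mean over the 96 probe sets of each mouse's log2 signal minus the probe set's mean over 30 mice, and carries no test. Group means ran from -0.10 (NON, 2 weeks) to 0.06 (NOD and NON, 4 weeks), whereas the mice ran from -0.45 (NON 2 week replicate 5) to 0.68 (NOD 4 week replicate 3). At 4 weeks the NOD mice lay at 0.24, 0.02, 0.68, -0.25 and -0.39, and the C57 mice at 0.22, 0.17, 0.02, -0.01 and -0.19. All 6 groups overlapped. The mouse at 0.68 is the one that stands apart in its group by correlation. There 85 of the 96 probe sets were above the group mean, beside 51.2% of all kept probe sets, while its granulocyte precursor level was -2.02 and its proliferation level -1.17. Without it the NOD level was 0.15 below the controls at 4 weeks (-0.15, against 0.01 with it).

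The level moved with the 3'/5' ratio of beta-actin, another measure of RNA degradation. In each of the 6 groups the mouse with the highest ribosomal protein level ranked 1 or 2 of 5 for this ratio, and the mouse with the lowest level ranked 1 or 2 from the bottom. In NOD at 2 weeks, the highest mouse (0.22) had a ratio of 2.62 and the lowest (-0.24) had 0.988. In NON at 4 weeks, the mice at 0.22 and 0.20 had ratios of 7.02 and 5.3, and the one at -0.16 had 1.55. Over the 30 mice, with group means removed, Pearson's r was 0.73 and Spearman's rho 0.80, given as a description, and r was 0.71 without the 2 mice farthest in the ratio. For the Gapdh ratio r was 0.23. The part of RNA quality in the level was not tested.

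**Figure D5:**
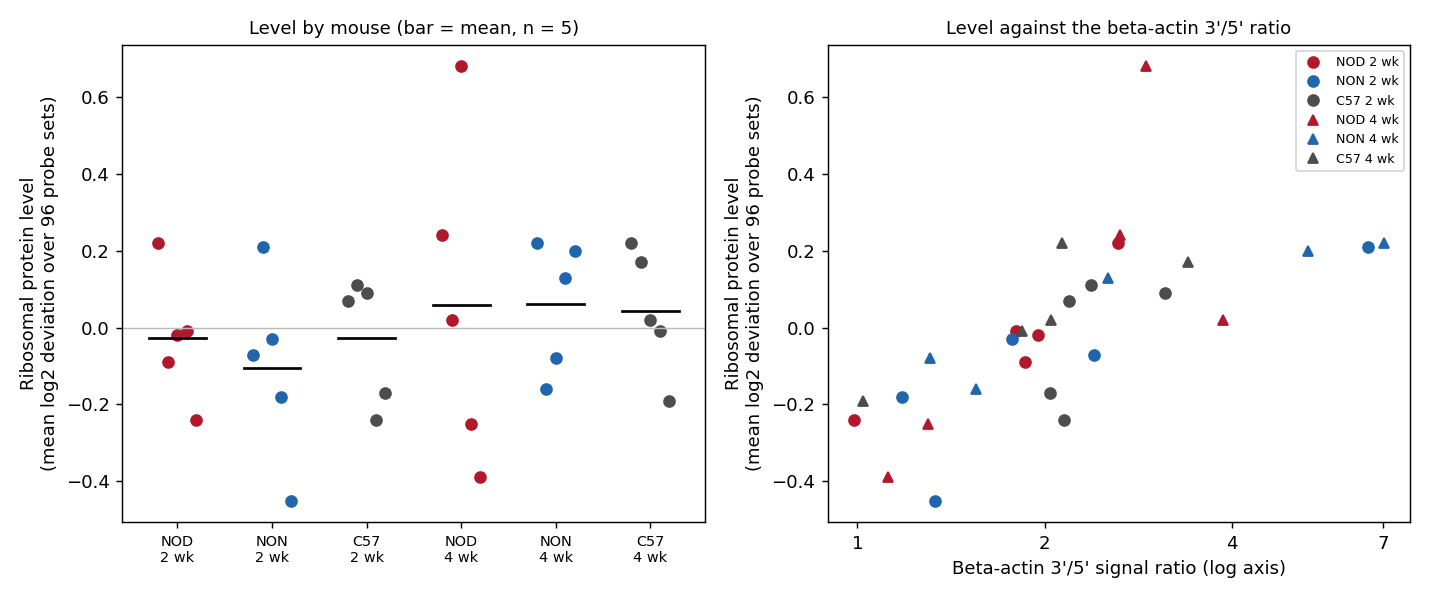
Ribosomal protein level (mean log2 deviation over 96 probe sets) of each mouse by strain and age, with bars at the group means (left), and the same values against the beta-actin 3'/5' signal ratio on a log axis (right). The NOD mice at 4 weeks spread from -0.39 to 0.68, and the mouse with the lowest level of each group ranked 1 or 2 from the bottom of its group for the ratio.

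The spread of the ribosomal proteins within groups depended on how the arrays were scaled. Their median SD within groups was 0.39 on the log2 scale, against 0.56 over all kept probe sets. Among probe sets with a mean signal of at least 1000 it was 0.38 for the 71 ribosomal proteins and 0.33 for all 2805. After quantile normalization the ribosomal protein median was 0.20, and that of all kept probe sets stayed at 0.56. The widest spread was that of Rpl37a 1416218_x_at (0.97), followed by Rps3 1447563_at (0.89). For the 21 genes with at least 2 kept probe sets, the difference of NOD from controls at 2 weeks ran from -0.07 to 0.09 over the 6 probe sets of Rpl35, from -0.45 to 0.41 over the 5 of Rps24, and from -2.58 to 0.26 over the 3 of Rpl7l1.

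In the F-test between strains, lists of genes around the ribosome were called at rates near or below those of all kept probe sets. Among 35 genes of ribosome biogenesis (66 probe sets), 1 probe set was called between strains at each age (1.52%, beside 1.66% and 1.51% of all kept), both times lower in NOD. This was Polr1c, a subunit shared by RNA polymerases I and III, which transcribe ribosomal RNA (limma adjusted p of the F-test = 0.00047 and 0.0041). Its means were 104 ± 20.4 in NOD (SD, n = 5), 441 ± 132 in NON and 365 ± 101 in C57 at 2 weeks, and 130, 444 and 384 at 4 weeks. In NOD against the mean of controls its log2 difference was -1.82 at 2 weeks (SE 0.21, limma adjusted p = 0.00029) and -1.60 at 4 weeks (SE 0.23, adjusted p = 0.0022). That contrast called only this probe set of the list at each age (1.52%, beside 0.499% and 0.804% of all kept). Among 143 probe sets of 76 genes of mitochondrial ribosomal proteins, 1 was called between strains at 2 weeks and 0 at 4 weeks (17 at an unadjusted p under 0.05, or 11.9% beside 13.4% of all kept). The called one was Mrps10, with means of 555 ± 167, 1320 ± 297 and 1120 ± 215 (SD, n = 5) for NOD, NON and C57 (limma adjusted p of the F-test = 0.013). In NOD against the mean of controls its log2 difference at 2 weeks was -1.14 (SE 0.19, limma adjusted p = 0.011). That contrast called only Mrps10 of this list at 2 weeks (0.699%, beside 0.499% of all kept) and 0 at 4 weeks (0.804% of all kept). None of the 30 probe sets of 14 translation factors with TOP mRNAs or of the 25 probe sets of 12 regulators such as Myc, Mtor and Larp1 were called between strains, in NOD against the controls or between ages (limma, adjusted p of at least 0.33 and 0.082).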

How the data were processed

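Per the methods, the authors prepared biotin-labelled cRNA from Trizol-extracted total RNA and computed MAS 5.0 signals. The deposited intensity values are on a linear scale, with a 2% trimmed mean of 250 on each of the 60 arrays, which is not the scaling target the methods name, so signals and the limit of 50 are in deposited units; a genome build is not given in the sources used here. The 430A and 430B values of a mouse were combined (45037 probe sets, controls left out) and taken as log2(signal + 10). Probe sets with a signal of at least 50 in at least 5 of 30 mice (38293) were tested with limma 3.58.1 in R 4.3.3. The 15 mice of an age gave the strain F-test and the difference of NOD from the mean of controls, the 10 of a strain the age change, and all 30 the interaction, adjusted by Benjamini-Hochberg across the kept probe sets, with a threshold of 0.05. Fold differences are ratios of mean signals, and log2 differences understate the change of dim probe sets. The number of arrays limits the precision. In simulated data the strain F-test at 2 weeks recovered 16% of changes of 1 and 69% of changes of 2 on the log2 scale, and the NOD contrast 26% and 73% (38293 probe sets). The changes were set in randomly drawn kept probe sets with independent noise. Recovery for the ribosomal proteins, whose median SD was 0.39 against 0.56 over all kept, was not simulated separately. Named genes were those called in the strain F-test or for age, with the other probe sets of these genes, the stalk proteins, Rpsa, the paralogs and their partners, and ribosomal protein genes that the study lists. Rps3, Rpl41, Rpl35 and Rpl37a were named after their values were seen. The members and lists were chosen with earlier results of these data known. Alternatives concerned the pseudocount, filter, normalization, probe sets, variance model, test, threshold, RNA quality, replicate block and each mouse left out. No 2 mice correlated above 0.905, so none was taken as a duplicate.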

Additional observations from a re-analysis of the deposited data

Results flagged for a closer look

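On Rps9 1434624_x_at the NOD 4 week replicate 3 had a signal of 732, while the other mice of its group lay between 241 and 284. The gap to the nearest mouse was 0.913 of the range of the group, above Dixon's critical value of 0.71. This was the only mouse found among 60 groups of 5 tested, and chance alone flags about 5% of groups.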

How the results depend on the processing

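Rpl8 at both ages, Rps9 (C57 against the others) at both ages, Rpl7l1 at 2 weeks, Rps6 at 4 weeks and Rpl14 at 2 weeks kept their direction and call (limma F-test) under each alternative at a threshold of 0.05 in which they were tested and without each mouse in turn. At 0.005 Rpl8 (adjusted p = 0.0063 and 0.0065) and Rpl14 (0.013) lost theirs. No value named changed direction past the threshold. At an adjusted p under 0.005, 2 ribosomal protein probe sets differed between strains at each age (in place of 6 and 4), of 202 and 181 over all kept. For NOD against the controls, the Gapdh ratio as a covariate left 2 at 2 weeks and 1 at 4 weeks (127 and 147 over all kept, in place of 191 and 308), a filter of 200 in at least 15 mice gave 6 at 4 weeks (Rps6, Rps24 and Rps3 added, 397 over all tested), and all 30 mice in 1 fit gave 5 (570). That fit called 1 probe set for age in NOD and 1 in C57, Rps4l in both, and 56, 560 and 176 of all kept probe sets in NOD, NON and C57 (in place of 6, 23 and 41). The methods' t-test at an unadjusted p under 0.001 called 1 ribosomal protein probe set for age in NOD, beside 114 over all kept. Without 1 mouse the counts ran from 4 to 7 and 3 to 4 between strains, from 2 to 4 (2 without NOD 2 week replicate 2, 4 or 5) and 2 to 3 for NOD against controls, and 0 to 0, 0 to 0 and 0 to 1 for age in NOD, NON and C57 (1 without C57 2 week replicate 3). The level of NOD over controls ran from -0.02 to 0.09 and from -0.15 to 0.12, and its age change from -0.07 to 0.2, 0.08 to 0.25 and 0.02 to 0.13. The median spread was 0.2 after quantile normalization, and the share of genes with the tract was 46.5% within 5 bases, both chosen after seeing the data, as was the beta-actin covariate. Rps3 lost its 2 week call under 6 of 11 alternatives other than leaving out a mouse and passed at 4 weeks under 5. Median centering ended the Rps6 call at 2 weeks (adjusted p = 0.062). The methods' ANOVA ended that of Rps4l (0.052). Where an alternative changed a call, the cause was not tested.

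With the replicate number as a block, 4 and 3 ribosomal protein probe sets differed between strains at 2 and 4 weeks (472 and 367 over all kept), 3 and 2 differed in NOD against the controls (162 and 201), and 0 changed with age in any strain. The calls of Rps6 and Rps4l at 2 weeks (adjusted p = 0.084 and 0.075), Rpl7l1 at 4 weeks (F-test, 0.067), Rps3 at 2 weeks (0.059) and Rps9 at 4 weeks (NOD against controls, 0.07) were lost. The numbers do not pair the mice: deviations of mice with the same number in different strains correlated at -0.0795 to 0.121.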

Other observations

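Genes for building ribosomes and the mitochondrial ribosomal proteins lay lower at 4 than at 2 weeks in NON mice in the values as deposited. No probe set passed the test (limma, adjusted p of at least 0.17 and 0.09). These lists were not rerun with other scalings. For the cytosolic ribosomal proteins, quantile normalization took the median age change in NON from 0.22 to 0.03. Of the 66 biogenesis probe sets 51 lay below 0 with a median log2 change of -0.35. At a limma unadjusted p under 0.05 there were 20 of them (30.3%, beside 11.1% of all kept). Of the 143 mitochondrial ribosomal protein probe sets 119 lay below 0, with a median of -0.24, and 25 were at an unadjusted p under 0.05 (17.5%). Over all kept probe sets 49.8% lay below 0 with a median of 0. In NOD the medians of these lists were -0.08 and -0.05, and in C57 0.02 and 0.02. The proliferation list (11 of 12 genes kept) had a mean log2 deviation of 0.47 to 1.21 in NON at 2 weeks and -0.51 to 0.32 at 4 weeks, and its part in these values was not tested.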
